A study of Mus musculus with 6 samples.

Results

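Smooth muscle and pericyte genes were measured in macrophages selected from the epididymal fat of mice on a high-fat diet (HFD) or on normal chow (NCD). The set held 34 genes, drawn up by hand as a module of vessel-wall genes and selected on the difference between diets in these same arrays: genes of this kind had stood out as lower in HFD, and known markers were gathered round them. The values that chose the set were thus the HFD and NCD levels described here, so every difference between diets for these genes is a description and has no test. Of the 34 genes, 33 were measured, each by 1 transcript cluster (the probe set that stands for a gene or transcript), among 30142 genes in all; Ednra was not analysed here.

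The cells came from male C57BL/6J mice that were 22 weeks old and had been on their diet for 16 weeks, from the age of 6 weeks. HFD mice ate a diet with 60% fat and NCD mice ate chow. Fat was digested with collagenase, and cells of the stromal vascular fraction that bound an antibody to F4/80, the macrophage surface antigen encoded by Adgre1, were taken with magnetic beads. Each HFD sample pooled 10 mice and each NCD sample pooled 20 mice, and 100 ng of RNA from each pool went onto 1 Affymetrix array, giving 3 arrays per diet (HFD1 to HFD3 and NCD1 to NCD3). The pool was the replicate, so single mice have no spread of their own here. All levels below are log2 array values as the authors deposited them. Each probe set has its own response, so a level is read between arrays and not as an amount relative to another gene; the gene called the brightest of a list is the one with the highest array signal, and a difference between means of lists is read only from array to array.

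Smooth muscle cells wrap arteries and veins and set their width by contraction; pericytes are their thinner relatives on capillaries, embedded in the basement membrane against the endothelium. Contraction in smooth muscle begins when calcium and calmodulin switch on myosin light chain kinase, which phosphorylates the regulatory light chain of smooth muscle myosin so that it pulls on actin. Most genes of the contractile apparatus are switched on by serum response factor (SRF) together with its muscle coactivator myocardin, through a DNA element called the CArG box. In fat, these mural cells lie close to resident macrophages, adipocytes and the progenitors of adipocytes.

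The promoters of 3 of these genes are shown first because they hold the letters that the SRF and TEAD factors are known to prefer. RefSeq promoters on GRCm38.p6 were each 300 bases long, 250 before the annotated transcript start and 50 after it. They could be matched for 27 of the members and for 27025 genes in all. None was matched for Myh11, Tagln, Actg2, Myocd, Pdgfrb and Ccn2, so these measured members were not searched for motifs. The array's own genome build is not stated in the sources used here. The regulatory light chain gene Myl9 (chr2:156775214-156775513, plus strand), the smooth muscle actin gene Acta2 (chr19:34255324-34255623, minus strand) and the matricellular gene Ccn1 (chr3:145649936-145650235, minus strand) are printed 5′ to 3′ on the strand of the gene. Capitals mark a CArG box in Myl9, both CArG-like boxes in Acta2, and the letters CATTCC, the reverse complement of GGAATG, in Ccn1.
Myl9: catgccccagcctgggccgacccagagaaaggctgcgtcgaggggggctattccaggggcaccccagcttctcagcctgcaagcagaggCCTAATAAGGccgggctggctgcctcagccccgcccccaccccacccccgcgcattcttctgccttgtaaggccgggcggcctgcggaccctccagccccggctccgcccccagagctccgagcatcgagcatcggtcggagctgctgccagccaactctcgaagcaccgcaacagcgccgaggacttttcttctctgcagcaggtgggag
Acta2: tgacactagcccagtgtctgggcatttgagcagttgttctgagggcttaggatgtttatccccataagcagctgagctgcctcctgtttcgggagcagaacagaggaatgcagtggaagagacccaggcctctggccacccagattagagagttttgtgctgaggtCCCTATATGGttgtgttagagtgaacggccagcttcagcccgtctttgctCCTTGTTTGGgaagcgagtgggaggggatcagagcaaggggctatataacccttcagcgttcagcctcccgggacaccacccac
Ccn1: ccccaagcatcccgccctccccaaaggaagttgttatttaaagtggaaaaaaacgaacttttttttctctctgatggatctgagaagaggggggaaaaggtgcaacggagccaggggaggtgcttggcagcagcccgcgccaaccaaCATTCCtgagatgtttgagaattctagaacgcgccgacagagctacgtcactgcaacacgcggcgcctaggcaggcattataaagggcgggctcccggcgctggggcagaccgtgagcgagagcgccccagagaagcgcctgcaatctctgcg

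The CArG box was searched by its name's usual form, a pair of C, 6 letters that are each A or T, and a pair of G, which reads the same on both strands. It was in the promoters of 3 of 27 members (11.1%), against 488 of 27025 genes (1.81%) and 1 of 28 genes (3.57%) on a second list of smooth muscle and mural genes. The 3 were Myl9, at −161 to −152 counted from the base before the transcript start as −1, Vcl, at −227 to −218, and Ldb3, whose overlapping promoters from 2 annotated starts contain the same box at −109 to −100 and at −35 to −26. A CArG-like box, with 1 letter of the 6 other than A or T, was added after the Acta2 sequence was seen. It was in 3 of 27 members (11.1%: Acta2, Myl9 and Fhl5), against 9.69% of all genes, 8 of 28 on the second list (28.6%) and 3 of 9 endothelial genes. In Acta2 these boxes lay at −84 to −75 and at −34 to −25.

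GGAATG, the core that TEAD factors bind, was searched on both strands. It was in 10 of 27 members (37.0%), against 16.6% of all genes, and in 9 of 28 genes with a promoter on the second list (32.1%). Its holders were Abcc9, Acta2, Cald1, Ccn1, Flna, Lmod1, Mylk, Smtn, Tpm1 and Vcl, and the match lay at −146 to −141 in Acta2 and at −103 to −98 in Ccn1. TATAAA, the letters of a TATA box, again on both strands, was in 5 members (18.5%: Ccn1, Rgs4, Cald1, Pln and Synpo2), against 15.7% of all genes. It lay close before the start in Ccn1, at −25 to −20, and in Rgs4, at −31 to −26. No matches of different motifs overlapped in these promoters. Each match is a description of letters in a short window and was not tested as a site of binding; the Cnn1 window held none of these letters.

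**Figure D1:**
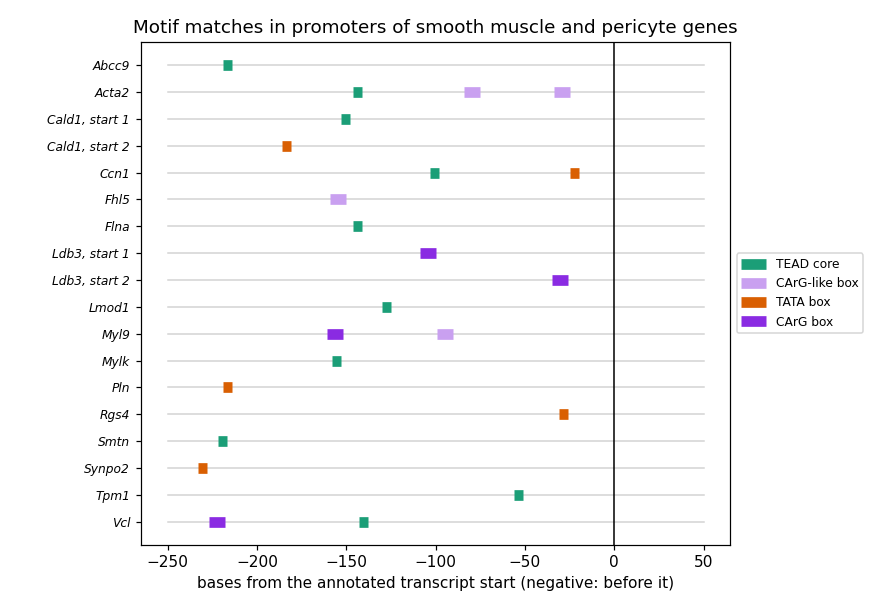
Positions of 4 motifs in the RefSeq promoters of members with at least 1 match, as bases from the annotated transcript start (horizontal axis, negative before it); grey lines are the promoters and coloured blocks the matches on either strand. The CArG boxes of Myl9, Vcl and Ldb3 lie at different distances from the start, and Ccn1 and Rgs4 have a TATA box just before it.

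The arrays were close to each other over all genes. Pearson's r across genes was 0.9947 to 0.9952 between HFD arrays and 0.985 to 0.993 between NCD arrays, lowest between NCD1 and NCD3. Over the 30142 genes, 865 were called lower in HFD (2.87%) and 1494 higher (4.96%) with limma's moderated test at a Benjamini-Hochberg adjusted p under 0.05, and all HFD arrays lay below all NCD arrays for 3912 (13.0%). The 95th percentile of 23 background probe sets, 6.23 log2, is called the background level below. Adgre1, the gene of the selected antigen, was bright throughout: its level was 16.54, 16.55 and 16.70 in HFD1 to HFD3, against 16.08, 15.93 and 15.05 in NCD1 to NCD3, lowest in NCD3. The difference of 0.91 ± 0.27 (SE) was not called (limma adjusted p = 0.0924), although all 3 HFD arrays lay above all 3 NCD arrays; the limma adjusted p was 0.0389 without NCD1 and 0.0364 without NCD3.

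Smooth muscle and pericyte transcripts were lower in HFD samples for 31 of the 33 genes measured, with a median difference of −1.91 log2 (HFD minus NCD), against 0.01 over all genes. Of the 33, 25 were at least 2-fold lower in HFD, beside 1117 of the 30142 genes, and 23 had all HFD arrays below all NCD arrays, beside 13.0% of all genes. By limma's threshold 18 were lower and 0 higher, beside 2.87% and 4.96% of all genes. At an unadjusted limma p under 0.05, 1 was higher, beside 4000 of the 30142 genes. The set was chosen on this contrast, and nothing is read from these counts. The count called lower was 10 without HFD1, 1 without HFD2, 1 without HFD3, 27 without NCD1, 1 without NCD2 and 17 without NCD3. In the same order the count over all 30142 genes was 316, 125, 124, 2314, 158 and 858, so it moved with that of the members. The median of the members stayed between −2.18 and −1.41. In RNA from a whole cell fraction, fewer smooth muscle cells or pericytes and less of these RNAs per cell cannot be told apart.

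**Figure D2:**
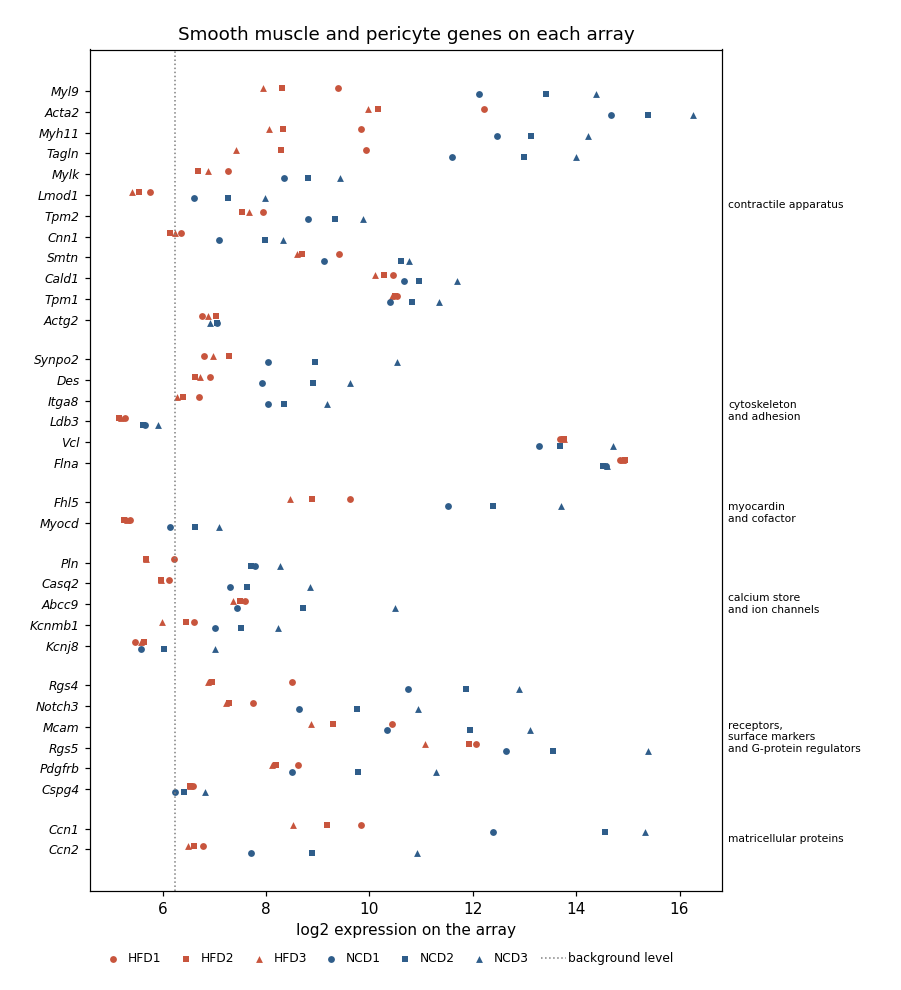
Log2 level of each measured gene (rows, grouped by role) on each HFD array (red) and NCD array (blue); the dotted line is the background level of 6.23. For Acta2, Myh11, Myl9, Tagln, Rgs4 and Ccn1 the HFD and NCD points are far apart, whereas for Flna, Actg2 and Cspg4 they lie close together. For Vcl and Tpm1 the diets overlap, with NCD3 above the other arrays.

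The contractile apparatus held several of the widest gaps. Acta2, smooth muscle alpha-actin, had levels of 12.21, 10.17 and 9.97 in HFD1 to HFD3, against 14.68, 15.39 and 16.26 in NCD1 to NCD3. The lowest NCD array stood 2.47 above the highest HFD array, and the difference of −4.66 ± 0.67 (SE) is 25.3-fold lower in HFD. Myh11, the smooth muscle myosin heavy chain and the most specific marker of the lineage, measured 9.84, 8.33 and 8.06 in HFD arrays, against 12.48, 13.12 and 14.22 in NCD arrays, a difference of −4.53 ± 0.59 (23.1-fold lower). Myl9, the regulatory light chain whose phosphorylation starts contraction, read 9.40, 8.30 and 7.93 in HFD arrays, against 12.13, 13.41 and 14.38 in NCD arrays. Its difference was −4.76 ± 0.62 (27.1-fold lower). For all 3 genes the diets did not overlap, NCD3 was the highest array and HFD1 the highest of the HFD arrays.

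Tagln encodes transgelin (SM22-alpha), an actin-binding protein abundant in smooth muscle. It had 9.93, 8.29 and 7.43 in HFD arrays, against 11.60, 13.00 and 13.99 in NCD arrays, a difference of −4.31 ± 0.79 (19.9-fold lower). Its range was 2.502 within HFD and 2.386 within NCD, both wider than the gap of 1.67 between the nearest arrays of the diets. Mylk, the myosin light chain kinase, measured 7.27, 6.68 and 6.87 in HFD arrays, against 8.34, 8.81 and 9.44 in NCD arrays (−1.92 ± 0.29). Cnn1, calponin, which binds actin and restrains the myosin ATPase, had 6.35, 6.14 and 6.24 in HFD arrays, against 7.08, 7.98 and 8.32 in NCD arrays (−1.55 ± 0.30). Both lay without overlap; the Cnn1 level sat at the background level in HFD, below it on 1 array.

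Tropomyosins lie along the actin filament and gate myosin binding, and they differed in the size of the gap. Tpm2, the beta chain, had 7.94, 7.54 and 7.66 in HFD arrays, against 8.80, 9.33 and 9.88 in NCD arrays (−1.62 ± 0.27), with no overlap. Tpm1, the alpha chain, which many cell types make, had 10.53, 10.49 and 10.44 in HFD arrays, against 10.40, 10.83 and 11.34 in NCD arrays (−0.37 ± 0.23). For Tpm1 the diets overlapped, with NCD1 the lowest array of all. Cald1, caldesmon, which tethers actin and myosin and has a non-muscle form, had 10.45, 10.28 and 10.10 in HFD arrays, against 10.67, 10.96 and 11.70 in NCD arrays; its difference of −0.83 ± 0.27 came with no overlap but by a margin of only 0.22.

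Lmod1, leiomodin, which seeds actin filaments in smooth muscle, was below the background level on all 3 HFD arrays and above it on all 3 NCD arrays (6.61, 7.26 and 7.99). It was thus at least 2.08-fold lower in HFD. Smtn, smoothelin, a marker of fully contractile cells, had 9.40, 8.70 and 8.60 in HFD arrays, against 9.12, 10.62 and 10.77 in NCD arrays (−1.27 ± 0.46), and NCD1 lay within the HFD range. Actg2, the gamma-actin of visceral smooth muscle such as gut and bladder, differed by −0.11 ± 0.10, with levels of 6.75 to 7.03 in HFD and 6.92 to 7.04 in NCD that overlapped. Across the 12 contractile genes the median difference was −1.68, and 9 had all HFD arrays below all NCD arrays, beside 13.0% of all genes. Acta2 and Actg2, and Tpm1 and Tpm2, are close paralogs, and cross-hybridisation between them was not examined here.

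Genes of the muscle cytoskeleton and its attachments included muscle-restricted and more widely used members. Des, desmin, the intermediate filament of muscle, had 6.91, 6.63 and 6.72 in HFD arrays, against 7.92, 8.90 and 9.62 in NCD arrays (−2.06 ± 0.40). Synpo2, a smooth and skeletal muscle protein that binds actin and filamin, had 6.80, 7.28 and 6.98 in HFD arrays, against 8.05, 8.96 and 10.53 in NCD arrays (−2.16 ± 0.58). Itga8, the integrin alpha subunit of vascular smooth muscle and other mesenchymal cells, had 6.70, 6.40 and 6.28 in HFD arrays, against 8.04, 8.35 and 9.17 in NCD arrays (−2.06 ± 0.29). None of these 3 genes overlapped between diets, and each was 4.17-fold to 4.47-fold lower in HFD.

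The widely used members Flna and Vcl behaved otherwise. Flna, filamin A, which cross-links actin in most cells including macrophages, had 14.85, 14.95 and 14.92 in HFD arrays, against 14.57, 14.53 and 14.59 in NCD arrays; all HFD arrays lay above all NCD arrays, the only member with that order, at a difference of 0.34 ± 0.09. Vcl, vinculin, of adhesion sites, had 13.69, 13.76 and 13.76 in HFD arrays, against 13.28, 13.69 and 14.72 in NCD arrays (−0.16 ± 0.35). The 3 HFD arrays spanned 0.07 there, the NCD arrays 1.45, and the diets overlapped. Ldb3, a Z-disc protein of striated muscle, was below the background level on all 6 arrays (5.15 to 5.27 in HFD and 5.63 to 5.90 in NCD), so no fold is given.

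Myocardin and a cofactor gene were lower in HFD arrays. Myocd, myocardin itself, was below the background level on all HFD arrays (5.37, 5.25 and 5.32), against 6.14, 6.63 and 7.09 in NCD1 to NCD3, where NCD1 was below that level too; it was at least 1.31-fold lower in HFD. Fhl5, a LIM-domain cofactor of the transcription factors CREB and CREM that is enriched in vascular smooth muscle, had 9.63, 8.89 and 8.46 in HFD arrays, against 11.51, 12.40 and 13.71 in NCD arrays. Its difference of −3.54 ± 0.57 is 11.7-fold lower in HFD, without overlap.

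Calcium store genes were measured beside genes of potassium channels. Pln, phospholamban, which restrains the calcium pump of the sarcoplasmic reticulum, was below the background level on all HFD arrays (6.21, 5.67 and 5.68), against 7.78, 7.71 and 8.27 in NCD arrays, and was at least 3.22-fold lower in HFD. Its range was 0.54 within HFD and 0.56 within NCD. Casq2, calsequestrin, which binds calcium inside the store, was also below the background level on all HFD arrays, against 7.30, 7.63 and 8.85 in NCD arrays (at least 3.23-fold lower). Both genes lay without overlap between diets.

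Kcnmb1, the smooth muscle beta subunit of the calcium-activated BK potassium channel, had 6.60, 6.45 and 5.99 in HFD arrays, against 7.02, 7.51 and 8.23 in NCD arrays (−1.24 ± 0.32), with no overlap. Kcnj8 and Abcc9 encode the pore Kir6.1 and the sulfonylurea receptor SUR2 of the vascular ATP-sensitive potassium channel, which marks pericytes in several mouse organs; they are next to each other on chromosome 6 with 0 annotated genes between them. Abcc9 had 7.58, 7.49 and 7.35 in HFD arrays, against 7.44, 8.72 and 10.50 in NCD arrays (−1.41 ± 0.70). Kcnj8 was below the background level on all HFD arrays and on 2 NCD arrays, at 5.58, 6.03 and 7.01 in NCD1 to NCD3. Both channel genes overlapped between diets, and both were highest in NCD3.

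Receptors and surface markers showed the same split between NCD arrays. Pdgfrb, the receptor that recruits pericytes to vessels in answer to endothelial PDGF-B, had 8.61, 8.19 and 8.11 in HFD arrays, against 8.50, 9.77 and 11.29 in NCD arrays (−1.55 ± 0.64). Mcam, the adhesion molecule CD146 shared by mural and endothelial cells, had 10.43, 9.30 and 8.87 in HFD arrays, against 10.33, 11.95 and 13.11 in NCD arrays (−2.27 ± 0.73). For Pdgfrb and Mcam HFD1 lay above NCD1, and NCD3 stood far above both. Cspg4, the NG2 proteoglycan of pericytes, lay near the background level on every array, at 6.53 to 6.58 in HFD and 6.24 to 6.81 in NCD, and its difference was 0.06 ± 0.15.

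Notch3, the Notch receptor that keeps arterial smooth muscle mature, had 7.74, 7.28 and 7.23 in HFD arrays, against 8.64, 9.76 and 10.94 in NCD arrays (−2.36 ± 0.54), without overlap. Rgs4 and Rgs5 encode regulators that shorten G-protein signals, and Rgs5 is a classical pericyte marker; they are adjacent on chromosome 1 with 0 annotated genes between them. Rgs4 had 8.50, 6.95 and 6.87 in HFD arrays, against 10.75, 11.88 and 12.90 in NCD arrays, a difference of −4.40 ± 0.64 (21.1-fold lower). Rgs5 had 12.07, 11.92 and 11.07 in HFD arrays, against 12.64, 13.55 and 15.39 in NCD arrays, a difference of −2.18 ± 0.68 (4.52-fold lower). Neither overlapped between diets, and the nearest arrays of the diets were 2.25 apart for Rgs4 and 0.57 apart for Rgs5.

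The matricellular genes Ccn1 (Cyr61) and Ccn2 (Ctgf) encode secreted integrin-binding proteins and are textbook targets of YAP with TEAD, and of SRF. Ccn1 had 9.84, 9.19 and 8.52 in HFD arrays, against 12.38, 14.55 and 15.34 in NCD arrays; the difference of −4.91 ± 0.75 (30.1-fold lower) was the lowest of all 30142 genes. Ccn2 had 6.78, 6.61 and 6.48 in HFD arrays, against 7.71, 8.89 and 10.93 in NCD arrays (−2.55 ± 0.74). Neither overlapped between diets. Within NCD the range was 2.95 for Ccn1 and 3.22 for Ccn2, against 1.32 and 0.30 within HFD.

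Within a diet, the members moved together from pool to pool. HFD1 was the highest HFD array for 28 of the 33 genes (84.8%, against 26.3% of all genes), NCD3 the highest NCD array for 32 (97.0%, against 28.5%) and NCD1 the lowest NCD array for 29 (87.9%, against 31.2%). The exception to NCD3 was Actg2. The median range within a diet was 0.42 in HFD and 1.55 in NCD, against 0.21 in HFD and 0.28 in NCD over all genes, and the NCD range was the larger for 28 members. Since members share their arrays, these counts describe the same 6 samples and are not independent of each other.

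Between HFD1 and NCD1, the nearest pools of the diets, the members differed widely, within roles too. HFD1 minus NCD1 was −2.47 for Acta2, −2.64 for Myh11, −2.73 for Myl9, −2.25 for Rgs4 and −2.55 for Ccn1. Further contractile genes lay in between, at −1.67 for Tagln, −1.08 for Mylk, −0.86 for Tpm2 and −0.73 for Cnn1. Lmod1 was at −0.86, with HFD1 below the background level. The remaining contractile genes lay near or above 0, at 0.29 for Smtn, 0.13 for Tpm1, −0.22 for Cald1 and −0.29 for Actg2. Among pericyte markers it was 0.12 for Pdgfrb, 0.14 for Abcc9, 0.10 for Mcam and 0.35 for Cspg4, and −0.57 for Rgs5; Kcnj8 was below the background level on both arrays. Notch3 was at −0.90. HFD1 was above NCD1 for 8 members, which were Tpm1, Smtn, Flna, Vcl, Abcc9, Pdgfrb, Cspg4 and Mcam. These values rest on a single array of each diet and have no test.

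**Figure D3:**
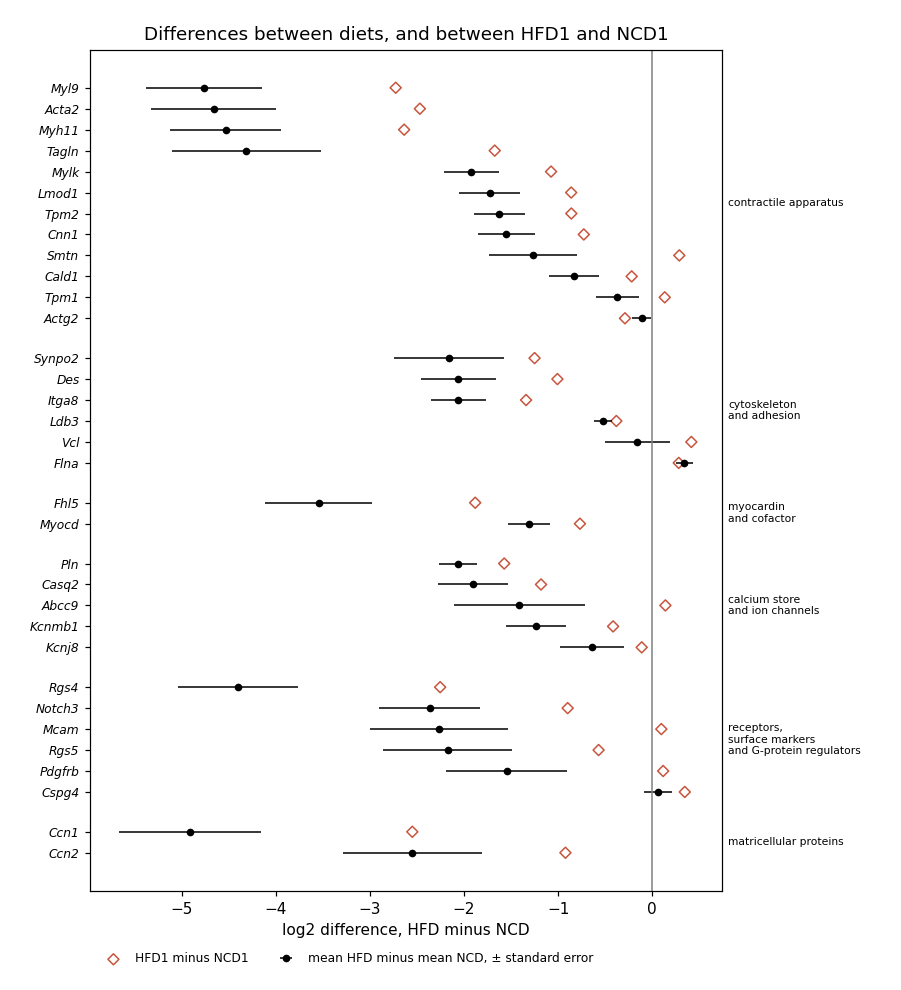
Log2 difference between diets for each measured gene, HFD minus NCD: black points are the difference of the means of 3 arrays with its standard error, and open diamonds are HFD1 minus NCD1. The diamonds of Myl9, Acta2, Myh11, Rgs4 and Ccn1 lie at −2.25 or lower, those of Cald1 and Actg2 near 0, and those of Smtn, Tpm1, Flna, Vcl, Pdgfrb, Abcc9, Mcam and Cspg4 above 0.

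A second list of 48 smooth muscle and mural genes outside the set gave the pathway around it; it was drawn up with results of these arrays known. Of the 42 measured, 17 were called lower in HFD and 1 higher, beside 2.87% and 4.96% of all genes, and the median difference was −0.97. All HFD arrays lay below all NCD arrays for 36 of the 42 (85.7%, against 13.0% of all genes). Without 1 array the count called lower ranged from 1, without NCD2, to 31, without NCD1; it was 6 without HFD1, 2 without HFD2, 2 without HFD3 and 13 without NCD3.

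Ano1, the calcium-activated chloride channel that depolarises smooth muscle, had 6.99, 6.59 and 6.37 in HFD arrays, against 8.91, 9.33 and 10.40 in NCD arrays, and fell 7.44-fold (−2.90 ± 0.38, limma adjusted p = 0.0109, lower in 3 of 3 HFD arrays). Slc38a11, an amino acid transporter family member, fell to 6.54, 6.13 and 5.81 in HFD arrays, against 8.17, 8.52 and 9.23 in NCD arrays (−2.48 ± 0.30, limma adjusted p = 0.00908, lower in 3 of 3 HFD arrays), with HFD2 and HFD3 below the background level. Filip1l, a filamin-interacting protein, was below that level on all HFD arrays and at 6.58, 6.82 and 6.91 in NCD arrays (at least 1.456-fold lower, limma adjusted p = 0.00907, lower in 3 of 3 HFD arrays). Csrp1, a LIM protein of smooth muscle and the brightest of the list, had 11.45, 11.21 and 11.38 in HFD arrays, against 11.66, 12.65 and 13.28 in NCD arrays, and was not called (−1.19 ± 0.38, limma adjusted p = 0.117). The gene called higher was Speg, a muscle kinase gene, by 0.40 ± 0.09 (limma adjusted p = 0.0453, higher in 3 of 3 HFD arrays, with 2 NCD arrays below the background level). With 1 array left out, the limma adjusted p ranged from 0.00582 to 0.0493 for Slc38a11, from 0.00592 to 0.0583 (without HFD3) for Ano1 and from 0.00454 to 0.0501 (without NCD2) for Filip1l, reached 0.00782 for Csrp1 without NCD1, and left 0 genes of the list called higher, so the call of Speg was lost each time.

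Regulators of these genes differed among themselves. Srf had 8.95, 9.18 and 9.07 in HFD arrays, against 8.52, 9.01 and 9.05 in NCD arrays (0.21 ± 0.17, limma adjusted p = 0.515). Mrtfa and Mrtfb, the actin-sensing relatives of myocardin, differed by 0.52 ± 0.16 (limma adjusted p = 0.105) and −0.29 ± 0.27 (limma adjusted p = 0.587), and Mrtfa was higher in all 3 HFD arrays than in any NCD array. The YAP partners were named after their values were seen: Yap1 differed by −1.17 ± 0.41 (limma adjusted p = 0.138) and Tead1 by −1.17 ± 0.37 (limma adjusted p = 0.107), both lower in 3 of 3 HFD arrays without overlap but not called. Wwtr1, which encodes TAZ, differed by −1.74 ± 0.58 (limma adjusted p = 0.123), with HFD1 above NCD1. Of 20 regulators and targets of SRF, MRTF and YAP outside the set, 2 were called lower and 0 higher, beside 2.87% and 4.96% of all genes. At an unadjusted limma p under 0.05 the counts were 8 and 3, beside 3356 and 4000 of the 30142 genes. The median was −0.27. Lower in HFD were 13 of the 20. Among them were Ptpn14 (−2.15 ± 0.51), Ajuba (−1.41 ± 0.42), Amotl2 (−1.31 ± 0.42) and Tead4 (−0.77 ± 0.33, with HFD1 above NCD1). Nuak2 (0.36 ± 0.25), F3 (0.53 ± 0.25), Actn1 (0.85 ± 0.32) and Tln1 (0.31 ± 0.13) went the other way. For Actn1 and Tln1 all 3 HFD arrays lay above all 3 NCD arrays. Ankrd1 was below the background level on all 6 arrays. The pair called were Fhl1, a LIM protein of muscle, which fell 4.10-fold (−2.04 ± 0.38, limma adjusted p = 0.0267, lower in 3 of 3 HFD arrays), and Lats2, a kinase that restrains YAP, which fell 1.72-fold (−0.78 ± 0.18, limma adjusted p = 0.0495, lower in 3 of 3 HFD arrays). Tpm4, a non-muscle tropomyosin and the brightest of this list, did not pass (0.23 ± 0.13, limma adjusted p = 0.367). The count called lower was 9 without NCD1 and 2 without NCD3, beside 2314 and 858 of the 30142 genes, and 0 without any other array. The limma adjusted p reached 0.113 for Fhl1, without HFD2, and 0.186 for Lats2, without HFD3.

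Endothelial genes, the closest neighbours of mural cells, varied over the arrays in a related but not identical way. Of 19 measured, 1 was called lower and 0 higher, beside 2.87% and 4.96% of all genes. At an unadjusted limma p under 0.05, 17 were lower and 0 higher, beside 3356 and 4000 of the 30142 genes. The median difference was −1.92. The one called was Sox17, an arterial transcription factor (−2.20 ± 0.48, limma adjusted p = 0.0433, lower in 3 of 3 HFD arrays). Cdh5, VE-cadherin, the brightest of the list, had 15.39, 14.19 and 14.11 in HFD arrays, against 14.84, 16.52 and 16.79 in NCD arrays (−1.49 ± 0.58, limma adjusted p = 0.177). Without NCD1, 19 of 19 were called lower, beside 2314 of the 30142 genes. Without any other array 0 of 19 were, and the limma adjusted p of Sox17 reached 0.168, without HFD3. HFD1 was the highest HFD array, NCD3 the highest NCD array and NCD1 the lowest for 19 of 19 genes. HFD1 exceeded NCD1 for 16 of 19, and 3 of 19 (15.8%) had all HFD arrays below all NCD arrays, beside 13.0% of all genes.

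The mean level of the 19 endothelial genes was 10.45 to 11.89 in HFD and 11.56 to 13.91 in NCD, and that of the 12 contractile genes was 7.97 to 8.82 in HFD and 9.91 to 11.27 in NCD. The contractile mean minus the endothelial mean on the same array was −3.07, −2.38 and −2.49 in HFD1 to HFD3, against −1.65, −2.75 and −2.65 in NCD1 to NCD3. Taken against endothelial genes in this way, NCD1 was the highest array, and NCD2 and NCD3 were within the HFD range. The contractile mean mixes wide and narrow gaps, so its order need not hold for single genes. The difference between diets was −4.66 for Acta2, −4.53 for Myh11, −4.76 for Myl9 and −4.31 for Tagln. It was −0.83 for Cald1, −0.37 for Tpm1 and −0.11 for Actg2, with the other contractile genes in between. The endothelial median difference was −1.92. The second list of smooth muscle and mural genes minus the endothelial mean gave another order, with −4.99, −3.87 and −3.82 in HFD1 to HFD3, against −4.13, −5.49 and −5.46 in NCD1 to NCD3. The mean of that list was only 6.63 to 6.90 in HFD, near the background level of 6.23. Of its 42 genes, 13 were below that level on all HFD arrays. The background level limits how far that list could fall, so no order between diets is read from it. The part of endothelial RNA in the levels of the members was not tested.

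**Figure D4:**
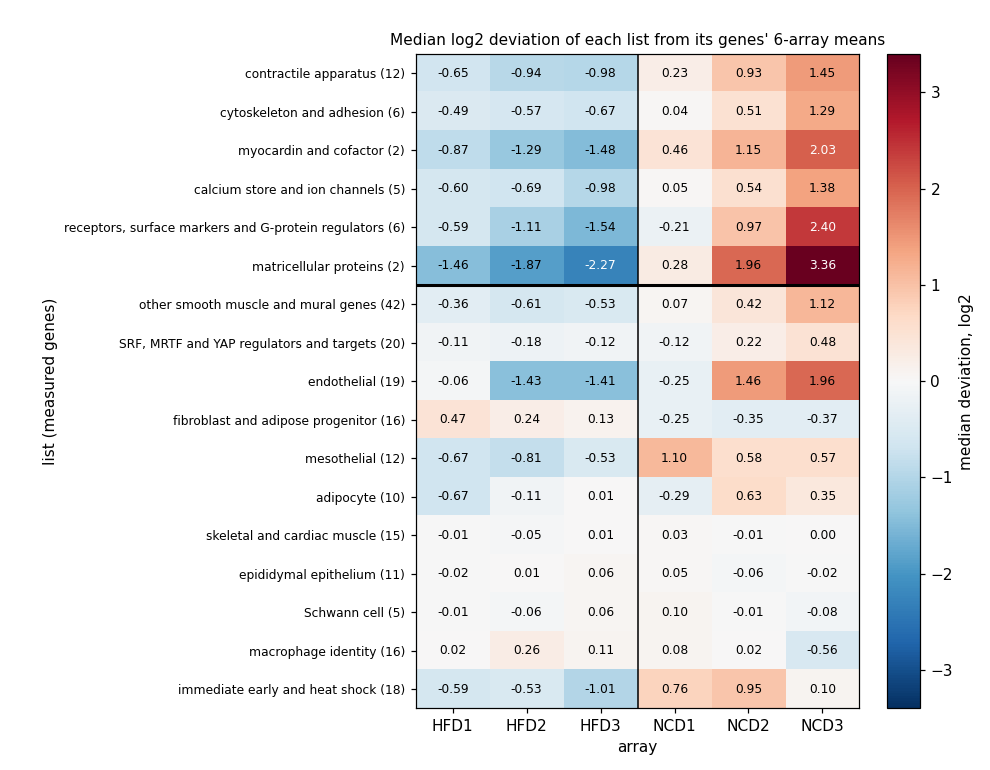
Median log2 deviation of each gene list (rows, with the number of genes measured; members by role above the black line) from its genes' means over 6 arrays, for each array (columns, HFD left). Role groups of the members and the endothelial list share a high NCD3 (1.96 for endothelial) and low HFD2 and HFD3, while the endothelial list has HFD1 at −0.06 and NCD1 at −0.25.

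Markers of other cells that the selection could hold are set out by list, beside 2.87% of all genes called lower and 4.96% called higher. At an unadjusted limma p under 0.05, 3356 of the 30142 genes were lower and 4000 higher. With 1 array left out, the calls over all genes ranged from 124 to 2314 lower and from 316 to 2399 higher. Mesothelial genes were lower in HFD for 12 of 12, with 11 called (5, without HFD2, to 12, without NCD1) and a median of −1.38; the smallest adjusted p was for the keratin gene Krt19, which was below the background level on all HFD arrays (at least 1.23-fold lower, limma adjusted p = 0.00222), and Upk1b, an uroplakin, fell 10.1-fold (−3.34 ± 0.28, limma adjusted p = 0.00359), both lower in 3 of 3 HFD arrays. Their pool order differed from that of the members, since NCD3 was the highest NCD array for 0 of 12 genes. Fibroblast genes were mixed, with 8 of 16 called higher (2, without HFD2, to 8, without NCD1) and a median of 0.57. None was called lower (4 lower at an unadjusted p under 0.05, and 2 called lower without NCD1). The difference was negative for 5 of the 16, and 3 were at least 2-fold lower in HFD. Among those called higher, collagen gene Col1a1 rose 3.87-fold (1.95 ± 0.24, limma adjusted p = 0.0091, and 0.0508 without NCD2, higher in 3 of 3 HFD arrays). Adipocyte genes had a median of −0.60, with 0 of 10 called by limma (4 lower and 0 higher at an unadjusted p under 0.05); 4 were called lower without NCD1 and 1 higher without HFD1.

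Skeletal and cardiac muscle genes, which could share contractile parts with smooth muscle, had a median of −0.02, and 0 of 15 were called by limma (1 lower and 0 higher at an unadjusted p under 0.05); 9 of the 15 were below the background level on all 6 arrays. Epididymal epithelial genes were below it on all 6 arrays for 11 of 11, and Schwann cell genes for 4 of 5, with 0 called by limma in either list (0 at an unadjusted p under 0.05). Macrophage identity genes had a median of 0.16, with 1 of 16 called lower and 3 higher (0, without HFD2 or HFD3, to 4, without NCD1). At an unadjusted limma p under 0.05, 1 was lower and 7 were higher. Over all genes, 2.87% were called lower and 4.96% higher. The unadjusted counts over the 30142 genes were 3356 lower and 4000 higher. With 1 array left out, the calls over all genes ranged from 124 to 2314 lower and from 316 to 2399 higher. The median deviation of macrophage identity genes was lowest in NCD3, at −0.56, the array on which the members were highest. The immediate early and heat shock genes, which respond to handling of tissue, had 10 of 18 called lower (3, without NCD2, to 13, without NCD3) and 0 higher (2 higher at an unadjusted p under 0.05) and a median of −1.34; NCD3 was the highest NCD array for 2 of 18. The part of these other cells and of handling in the levels of the members was not tested.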

How the data were processed

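Values were log2 expression per transcript cluster, 1 column per pool, as deposited by the authors; RMA, Transcriptome Analysis Console 3.1.0.5 and Affymetrix Expression Console 1.4.1.46 are listed in the submitters' processing notes. What each did, with which options and on which build, is not given in the sources used here. In the table there were 6732 control probe sets, left out, and 65956 clusters, of which 30604 carried 1 gene symbol; 827 symbols were updated by Entrez identifier. The brightest cluster per gene gave 30142 genes, dim ones included (47.8% averaged below the background level).

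HFD was compared with NCD over 6 arrays in limma 3.58.1 (lmFit, eBayes with trend, two-sided, Benjamini-Hochberg over all genes, called at an adjusted p under 0.05) in R 4.3.3. The fit was tested on simulated data. Errors are moderated standard errors; their median over genes was 0.118. The number of arrays limits the precision. Each p-value sets the difference between diets against the spread between pools, which held 10 mice in HFD and 20 in NCD. A gene below background on all HFD arrays has a fold bound, computed from the NCD mean against that level.

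The members, the other lists, the rules and the tests were chosen with earlier results of these data known. All measured members are named. Of each other list the rule names up to 3 called genes with the smallest adjusted p, and the brightest gene. Adgre1, Srf, Mrtfa and Mrtfb are named too. Named outside this rule, with their values known, are Speg, Yap1, Tead1, Wwtr1, Tead4, Ptpn14, Ajuba, Amotl2, Nuak2, F3, Actn1, Tln1 and Ankrd1. No values are given for Ckm, Defb20 and Mbp, the brightest genes of the skeletal and cardiac muscle, epididymal and Schwann cell lists. There were 13 alternatives. Promoters are RefSeq's (GRCm38.p6). Tables and figures used Python 3.11.15, pandas 2.3.3 and matplotlib 3.10.9.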

Additional observations from a re-analysis of the deposited data

How the results depend on the processing

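Of the 13 alternatives (6 that leave out an array, and 7 that change the block, scaling, filter, variance prior, weights, choice of cluster or clusters with several symbols), none turned the direction of a called value. With 1 array left out, genes called in all ranged from 442 to 4713 (lower 124 to 2314, higher 316 to 2399), members called lower from 1 to 27, and other smooth muscle and mural genes called lower from 1 to 31. Array weights called 4282 genes (1937 lower, 2345 higher), 29 of the other smooth muscle and mural genes lower, and 24 members lower. Members called higher were 1, against 0, with array weights, with genes below background dropped and without the mean-variance trend. With the replicate number as a block 144 genes were called (54 lower, 90 higher), and 0 members and 0 other smooth muscle and mural genes lower by limma; the cause was not tested. The labels do not say that the numbers mark pairs of pools. Deviations from the diet mean correlated at −0.36, −0.07 and −0.05 for numbers 1, 2 and 3. For unlike numbers they correlated at −0.28 to 0.32. With 3 arrays per diet, whose deviations add up to 0, these values cannot decide whether the pools were paired. Signal over background limits Ldb3, Myocd and Kcnj8, whose means over all 6 arrays lie below the background level.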

Other observations

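Genes of the other lists chosen by the same rule gave the following values. Among mesothelial genes, Krt8 was below the background level on all HFD arrays (at least 1.17-fold lower, limma adjusted p = 0.00288), and Gpm6a, a membrane glycoprotein and the brightest of that list, had 7.76, 7.09 and 7.61 in HFD arrays, against 12.12, 9.93 and 10.65 in NCD arrays (−3.41 ± 0.53, limma adjusted p = 0.0168). Here NCD1 was the highest array, unlike for Acta2 and Myh11. The fibroblast gene Lum, a collagen-binding proteoglycan, rose 5.86-fold (2.55 ± 0.25, limma adjusted p = 0.00522), and Dpt, dermatopontin, rose 2.63-fold (limma adjusted p = 0.00981), both higher in 3 of 3 HFD arrays. Dcn, decorin, the brightest fibroblast gene, was not called (−0.88 ± 0.29, limma adjusted p = 0.126). With 1 array left out, Krt8 and Lum stayed past the threshold, while without HFD2 the limma adjusted p was 0.079 for Gpm6a and 0.056 for Dpt.

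Of the macrophage genes, the Fc receptor Fcgr1 rose 2.69-fold (1.43 ± 0.21, limma adjusted p = 0.015) and Cd68, of the lysosomal membrane, rose 2.30-fold (1.20 ± 0.22, limma adjusted p = 0.0267), both higher in 3 of 3 HFD arrays. Mertk, a receptor for dying cells, fell 1.41-fold (−0.49 ± 0.10, limma adjusted p = 0.0387, lower in 3 of 3 HFD arrays), and lysozyme, Lyz2, had 18.77, 18.75 and 18.80 in HFD arrays, against 18.86, 18.97 and 18.69 in NCD arrays. The highest limma adjusted p with 1 array left out was 0.073 for Fcgr1 (without HFD3), 0.12 for Cd68 (without HFD3) and 0.185 for Mertk (without HFD2). Among immediate early genes, Klf2, a flow-responsive factor, fell 3.48-fold (−1.80 ± 0.19, limma adjusted p = 0.00685), Fosb, of AP-1, fell by 3.00 ± 0.33 log2 (limma adjusted p = 0.00734) and Btg2 fell 3.04-fold (−1.60 ± 0.19, limma adjusted p = 0.00862), each lower in 3 of 3 HFD arrays. Dusp1, the brightest of that list, fell 1.85-fold (−0.89 ± 0.13, limma adjusted p = 0.0152, and 0.0771 without HFD2); Klf2, Fosb and Btg2 stayed past the threshold with any 1 array left out. The brightest gene of the adipocyte list, Aqp7, a glycerol channel, was not called (−1.52 ± 0.62, limma adjusted p = 0.196, and 0.0109 without NCD1). HFD1 was its highest HFD array, an order found for 2 of 10 adipocyte genes and 19 of 19 endothelial genes.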
